A study of Zea mays with 18 samples.

Results

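Roots of the maize inbred line B73 were compared after growth with little or ample nitrate, across every gene of the deposited count table. The 6 B73 libraries, 3 at each nitrate level, were taken by their sample labels from the 18 libraries of the series. Seedlings 10 days old were kept for 48 h in a modified Hoagland nutrient solution that held 0.15 mM nitrate (called low nitrate here) or 15 mM nitrate (high nitrate), and RNA was made from the roots. B73 carries no alteration of ZmNRL1, the gene the series is about, and serves there as the reference for a mutant line, zmnrl1-m, and an overexpression line, ZmNRL1-OE. It is also the inbred behind the genome build, B73 RefGen_v4, that the submitters' processing notes name. The labels do not say whether roots of several plants were pooled or whether the repeats were planted separately. The edgeR p-values rest only on the spread among repeats in all 18 libraries of the series, the other genotypes included. Some of that spread may be technical.

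Nitrate is both the main nitrogen source of maize roots and a signal to them. It enters through low-affinity and high-affinity transporters, is reduced to nitrite by nitrate reductase and to ammonium by nitrite reductase, and the ammonium is built into glutamine by glutamine synthetase. Genes for these steps, and many genes of carbon supply and root growth, are known in plants to respond to a change in nitrate supply. The identifiers of the deposited tables are not paired with gene names in the sources used here, so the members of these pathways were not located, the tissue label was not checked against root markers, and genes are described by identifier, level, size of change and length.

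Total read counts lay between 21974154 and 35625821 at low nitrate and between 33492510 and 39003607 at high nitrate. On the first principal component of log2 CPM (read counts relative to library size, with libraries scaled by TMM, edgeR's trimmed mean of M-values), with 44.4% of the variance, the 3 low-nitrate libraries stood on one side and the 3 high-nitrate libraries on the other. The second component, with 27.3%, set both libraries with repeat number 1 apart from the other 4. In a fit with the repeat number as a block within B73, 217 genes (0.800% of those tested) differed between number 1 and numbers 2 and 3 at an edgeR adjusted p under 0.05. Of these 200 were higher in the libraries with number 1. Of all 217, 5 were among the genes raised and 1 among those lowered at low nitrate, where 9.24% and 5.49% of tested genes were called. The fit behind those calls has no block, so a difference by number enters it as spread and makes a call less likely. The overlap therefore cannot show whether the responders are free of such a difference.

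Between low and high nitrate 3998 of the 27134 genes tested (14.7%) differed at an adjusted p under 0.05 by edgeR's quasi-likelihood test, and more of them rose than fell at low nitrate. There were 2507 genes higher (9.24%) and 1491 lower (5.49%). An unadjusted p under 0.05 was reached by 30.7%. With library sizes alone in place of TMM, 69.9% of called genes were higher, against 62.7%. The median log2 fold change over all tested genes was 0 with TMM and 0.014 with library sizes alone. With TMM and a minimum count of 50 it was 0.009. In the bulk RNA of a root, a lower value can come from fewer cells of a type or from less RNA per cell, and these cannot be told apart. Single libraries weighed on the counts. Leaving out low-nitrate replicate 2 gave 1600 higher and 741 lower genes. Leaving out replicate 3 at low nitrate gave 1565 and 637, and leaving out replicate 2 at high nitrate gave 1352 and 702. Without both libraries with number 1 there were 3729, of which 2796 were among the 3998. The fit behind the 3998 has no block for the repeat number. With such a block 3841 genes were called (within B73) or 3352 (over all genotypes). The 6 B73 libraries fitted alone, over 24990 genes, gave 3507 calls without the block and 3288 with it. Of the 3998 genes, 2972 were called in the same direction in that fit without the block.

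Most changes were small, and the share of raised genes among them grew with the size of the change up to 4-fold. Below 1.5-fold the numbers were nearly even, with 955 genes higher and 881 lower. Between 1.5-fold and 2-fold 781 were higher and 344 lower, and between 2-fold and 4-fold 600 and 188. In the class from 4-fold to 8-fold 137 genes were higher and 52 lower, and from 8-fold upward 34 and 26. The median log2 fold change was 0.71 for the higher genes and -0.50 for the lower ones. The replicate spread gives a scale for these values. Within a nitrate level, the median SD of log2 CPM over tested genes was 0.153 at low and 0.147 at high nitrate.

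**Figure D1:**
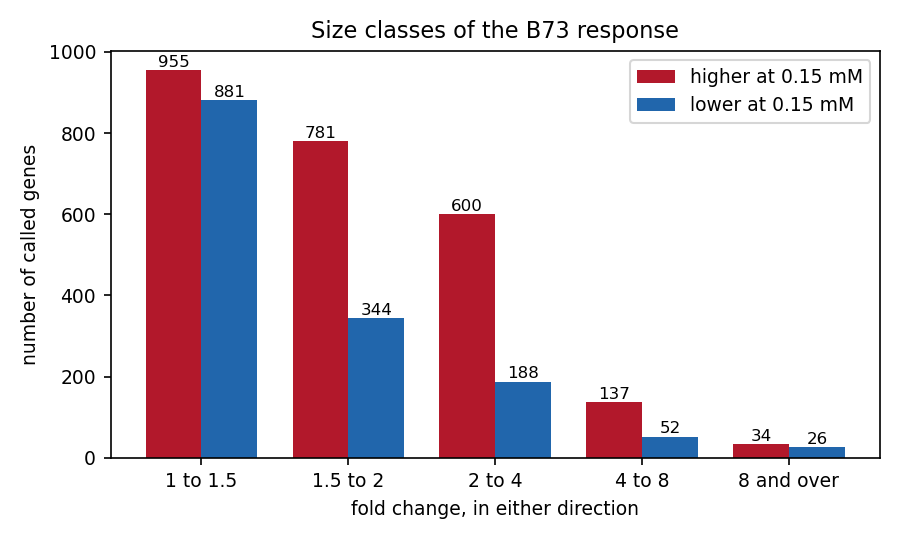
Number of B73 genes called at an adjusted p under 0.05 (vertical axis) in classes of fitted fold change between 0.15 and 15 mM nitrate (horizontal axis), with genes higher at 0.15 mM in red and lower in blue. The bars are nearly equal below 1.5-fold (955 and 881), and the red bar is more than 3 times the blue one between 2-fold and 4-fold (600 and 188).

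Changes of at least 2-fold made up 1037 of the called genes (3.82% of genes tested), 771 higher (2.84%) and 266 lower (0.98%). Without regard to the test, 7.43% of genes had a fitted change of that size. These numbers moved less with single libraries than the full count, between 559 and 792 higher and between 219 and 299 lower when any 1 of the 6 libraries was left out. A stricter question is whether a change exceeded 1.5-fold beyond its error. With glmTreat, edgeR's test against a minimum fold, 531 genes (1.96%) passed at an adjusted p under 0.05, 384 of them higher (1.42%) and 147 lower (0.542%). For 396 called genes the whole 95% interval of the change lay beyond 2-fold.

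Large changes kept their call more often across the libraries. Of the 1836 genes that changed by less than 1.5-fold, 17.7% stayed called in the same direction in each of the 6 fits with 1 library left out. The share was 48.4% from 1.5-fold to 2-fold, 66.4% from 2-fold to 4-fold, 77.8% from 4-fold to 8-fold and 76.7% from 8-fold upward. In all, 1586 of the 3998 genes kept their call in all 6 fits and 136 in none. The low and high libraries did not overlap in CPM for 3879 of the called genes, against 33.5% of all genes tested. Since calls are made from these same values, that number describes the calls and adds no support to them.

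For most genes the data placed a limit on the response. In 20768 genes (76.5% of those tested) the 95% interval of the change excluded 2-fold in either direction, and in 14428 (53.2%) it excluded 1.5-fold. Of the former, 2119 were called all the same, as small changes with narrow errors. Another 4487 genes were not called and had intervals that reached 2-fold, so that a 2-fold response was neither detected nor excluded at this depth. Most of these, 3848, had a mean of under 100 counts per library, and their median was 14.7 counts against 683 for the genes with 2-fold excluded. The genes with 2-fold or 1.5-fold excluded may include the 387 tested genes without any count in B73, which carry no information on the response. With no filter on low counts, 2-fold was excluded in 23583 genes, so that number partly depends on nearly empty genes.

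No gene with many counts at one nitrate level was at 0 at the other. Among tested genes, 125 had counts only in low-nitrate and 125 only in high-nitrate libraries. The highest sum over the 3 libraries was 51 counts for the former and 26 for the latter, and 2 and 4 of these genes were called. The number of genes with at least 1 count per library was 28706 ± 260 at low and 28992 ± 361 at high nitrate (SD, n = 3 each), a difference of -285 with an exact two-sided permutation p of 0.5. At a common depth of 21974154 counts the difference was 104 in the other direction (p = 0.5, exact permutation). The smallest p that 3 libraries against 3 allow is 0.1. In each library the 10 genes with the most counts held 2.80% ± 0.371 of the total at low and 2.56% ± 0.184 at high nitrate (exact permutation p = 0.4, n = 3 each), with adjusted p of 0.7 for each of these over the 7 library measures compared.

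Responders were found at every level of expression, and the balance of direction turned with the level. Levels were compared between genes in FPKM, the authors' values normalised for gene length and library size, as the mean of the 6 B73 libraries. Below 1 FPKM 4.01% of 4618 tested genes were called higher and 1.56% lower. From 1 to 10 FPKM the shares were 9.62% and 4.81% of 11676 genes, and from 10 to 100 FPKM 11.3% and 7.53% of 9918. From 100 to 1000 FPKM they were 8.07% and 12% of 905, so that there more genes were lower than higher. At 100 FPKM and above, 74 genes were higher and 110 lower, and the lower genes were the more numerous under each of the 18 alternative settings. The numbers themselves shrank to 35 and 62 when low-nitrate replicate 2 was left out, to 45 and 50 for replicate 3 at that level, and to 32 and 54 for replicate 2 at high nitrate. DESeq2 called 92 and 192.

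**Figure D2:**
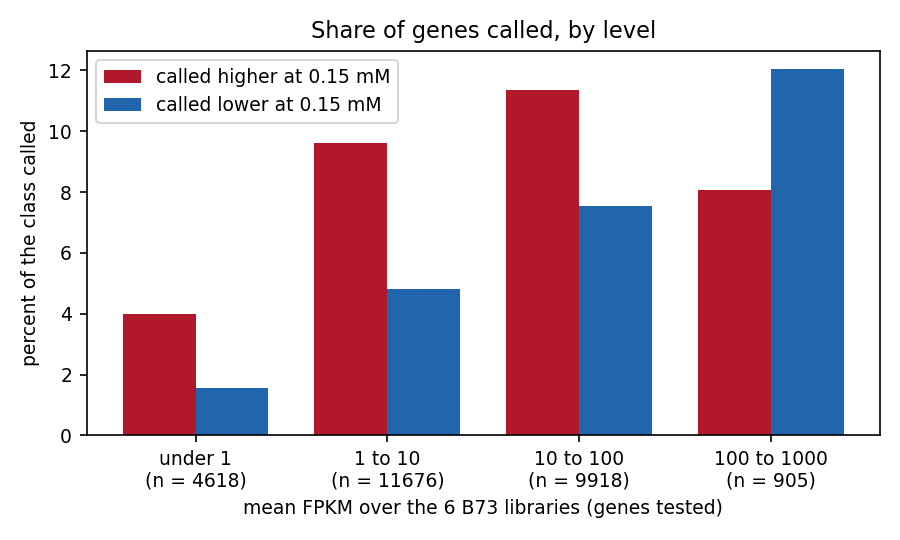
Percent of tested genes called higher (red) or lower (blue) at 0.15 mM nitrate in B73 roots, by class of mean FPKM over the 6 B73 libraries, with the number of genes tested under each class. Red exceeds blue in the 3 lower classes (11.3% against 7.53% from 10 to 100 FPKM), and blue exceeds red from 100 to 1000 FPKM (12% against 8.07%).

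Up to 100 FPKM the size of the called changes fell as the level rose, along with the error. The median standard error (SE) of the log2 fold change was 0.48 below 1 FPKM and 0.11 from 10 to 100 FPKM. The median absolute log2 fold change of called genes was 1.64 and 0.52 in these classes. Over all tested genes, called or not, it was 0.44 and 0.17. Below 1 FPKM, 160 of the 185 genes called higher and 53 of the 72 called lower changed by at least 2-fold. The trend in direction was also present by counts. When tested genes were divided into 10 equal groups by mean count, 72.6% of the called genes in the lowest group were higher, 76.8% in the next one and 47.3% in the highest.

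**Figure D3:**
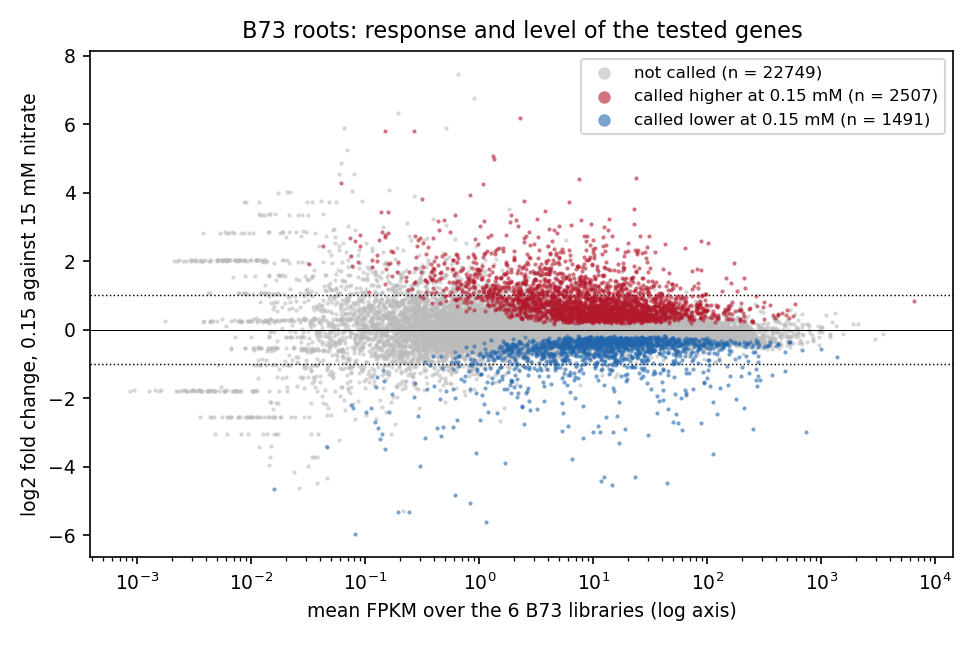
Log2 fold change at 0.15 against 15 mM nitrate (vertical axis) against mean FPKM over the 6 B73 libraries (horizontal log axis) for the tested genes with a count in B73. Red and blue points are the genes called higher (2507) and lower (1491), grey points the rest, dotted lines mark 2-fold, and the 387 tested genes with 0 counts in B73 are not drawn. Red points are the denser below 100 FPKM, and 1 red point stands alone at the far right, the most abundant gene of these roots.

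The response moved a modest part of the transcript pool. The genes called higher held 10.9%, 11.6% and 12.1% of the counts of tested genes in the 3 low-nitrate libraries and 7.54%, 6.88% and 7.55% in the high-nitrate ones. Those called lower held 6.87%, 6.64% and 6.63% at low and 9.85%, 10.1% and 9.78% at high nitrate. Because the genes were chosen by this same contrast, these shares are a description. Restricted to changes of at least 2-fold, the higher genes took 1.71% ± 0.107 at low and 0.613% ± 0.0344 at high nitrate, and the lower genes 0.479% ± 0.0157 and 1.48% ± 0.104 (SD, n = 3 each). The gain was spread over many genes. The 10 genes with the largest rise in CPM made up 12.8% of the summed rise of the 2507, and 228 genes were needed for 50% of it. For the fall, the 10 largest made up 14.1%, and 112 of the 1491 genes made up 50%.

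The most abundant transcript of B73 roots was itself higher at low nitrate. Zm00001d048611 had the highest mean of all tested genes in FPKM and in CPM, and it was singled out after its values had been seen. It stood at 7284, 9185 and 8729 FPKM in the low-nitrate libraries and at 4354, 4761 and 4920 FPKM in the high-nitrate ones. All 3 low-nitrate values exceeded all 3 high-nitrate values. The rise was 1.77-fold, a log2 fold change of 0.82 ± 0.17 (SE) with an edgeR adjusted p of 0.00340. The change was not past the threshold in limma on log2(FPKM + 1) (adjusted p = 0.0805) or log2(FPKM + 0.1) (0.101), and over the 18 alternatives the adjusted p ran from 7.67e-06 to 0.101. Of the 17 genes at 1000 FPKM or more, it was the only one called higher, and 1 was called lower.

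Among genes changed by at least 2-fold with no overlap between the nitrate levels, 758 higher and 264 lower, the most abundant were found by mean FPKM. Zm00001d051804 led the raised genes, at rank 340 of all tested genes. Its level was 287, 290 and 328 FPKM at low nitrate and 129, 120 and 132 FPKM at high nitrate. The replicates of each level lay close together, and the 2.34-fold rise (log2 1.23 ± 0.08 SE, edgeR adjusted p = 9.15e-08) was several times their spread. Zm00001d044495, at rank 352, came next, with 282, 314 and 334 FPKM at low nitrate and 109, 102 and 113 FPKM at high nitrate. It rose 2.83-fold (log2 1.5 ± 0.16 SE, edgeR adjusted p = 1.33e-05).

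By FPKM the most abundant lowered genes stood higher in the ranking than the raised ones. The same lowered genes stood lower by CPM, at ranks 567 and 382 against 250 and 176. Other abundant lowered genes stood higher by CPM, at ranks 136, 138 and 154. The raised genes among the most abundant by FPKM reached CPM ranks of 129, 176 and 250. Zm00001d008329, at FPKM rank 33, had 1585, 1135 and 1220 FPKM at high nitrate and 127, 197 and 179 FPKM at low nitrate. It fell 7.89-fold, with a log2 fold change of -2.98 ± 0.31 (SE) and an edgeR adjusted p of 9.91e-06. Its counted length is 292 bases, so its FPKM is high for its counts. Zm00001d038382, at rank 88 and 568 bases long, had 770, 793 and 449 FPKM at high nitrate and 374, 280 and 237 FPKM at low nitrate. The gap between the groups was narrow there, from 374 to 449 FPKM, and the 2.29-fold fall had a larger error (log2 -1.20 ± 0.26 SE, edgeR adjusted p = 0.00563). These 4 genes stayed called under all 18 alternative settings.

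**Figure D4:**
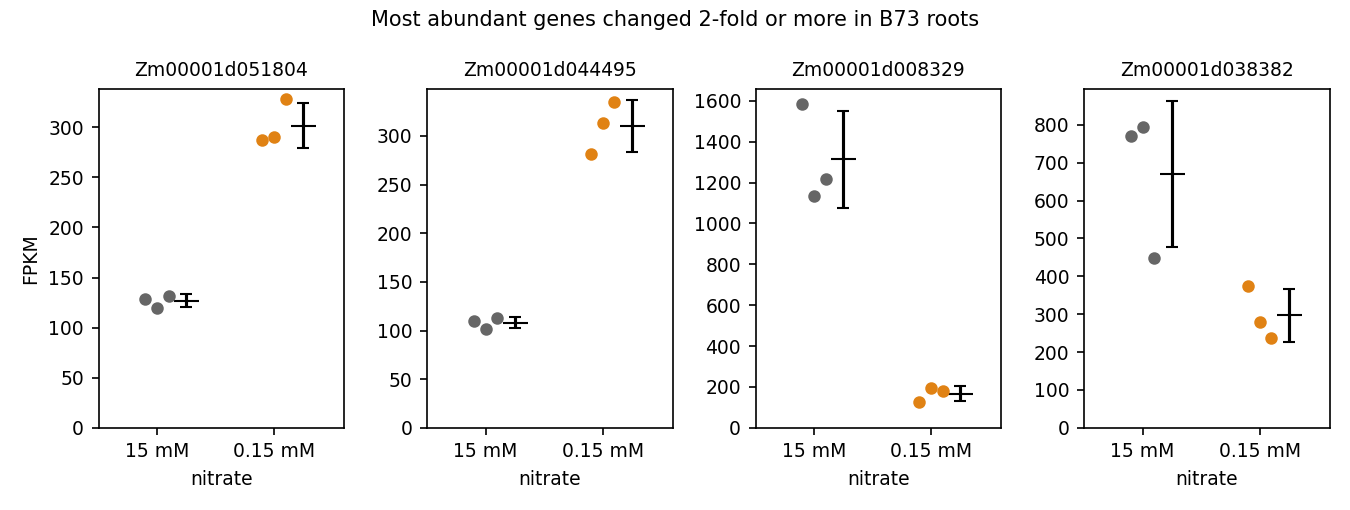
FPKM in each B73 library (points) at 15 mM (grey) and 0.15 mM nitrate (orange), with the mean and SD of 3 libraries beside them. Shown are the 2 raised and the 2 lowered genes of highest mean FPKM among those called and changed at least 2-fold. Separation of the points was part of the choice, since genes whose nitrate levels overlapped in CPM were left out. Vertical axes start at 0 and differ between panels. The points of the 2 nitrate levels are far apart in 3 genes and closest in Zm00001d038382, where the lowest value at 15 mM is 449 and the highest at 0.15 mM is 374.

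The 20 most abundant genes of each direction differed in level and in length. By FPKM the raised ones ranked from 340 to 1603 among all tested genes, with group means of 102 to 310 FPKM at low and 20.2 to 127 FPKM at high nitrate. The lowered ones ranked from 33 to 804, with 38 to 297 FPKM at low and 181 to 1313 FPKM at high nitrate. Folds ran from 2.00 to 6.01 with a median of 2.56 in the former and from 2.08 to 7.89 with a median of 2.77 in the latter. Of the lowered genes 15 were shorter than 1000 bases, and of the raised ones 8. Among all tested genes, 46.4% of those from 100 to 1000 FPKM and 18.9% of those from 10 to 100 FPKM were that short. Ranked by CPM, which does not divide by length, 13 of the 20 were the same in either direction.

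Gene length, taken as the value that ties the deposited counts to the deposited FPKM, was shorter among genes changed by at least 2-fold than among all tested genes. The median over tested genes was 1747 bases. It was 1663 for genes called higher and 1896 for genes called lower. Among genes changed by at least 2-fold it was 1422 for the higher and 1322 for the lower, and 31.1% and 35.0% of them were under 1000 bases, against 21.2% of all tested genes. Among all called genes the order differed between levels. Below 1 FPKM the medians were 1638 bases for higher and 1591 for lower genes, against 1392 for the tested genes of that class. From 1 to 10 FPKM they were 1749 and 2429 against 1967, and from 10 to 100 FPKM 1648 and 1844 against 1801. From 100 to 1000 FPKM they were 1119 and 1230 against 1053. Counts differed between the sets as well, and not always in step with length. The median of the mean counts was 524 for all genes called higher and 928 for all called lower. Genes called with a change of 2-fold to 4-fold had a median of 164 mean counts if higher and 301 if lower, against 450 for all tested genes. The part of the counts in the length difference was not tested.

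Of the B73 responders, larger shares were also called in ZmNRL1-OE than in zmnrl1-m below 4-fold, and in zmnrl1-m the share rose with the size of the change up to 8-fold. The responses of the genotypes share no library, and all were taken from the same fit. In zmnrl1-m, low nitrate raised 8.89% of tested genes and lowered 8.97%. Of the genes raised in B73, 20.4% were called higher there too for changes below 1.5-fold, 32.8% from 1.5-fold to 2-fold, 49.3% from 2-fold to 4-fold, 64.2% from 4-fold to 8-fold and 64.7% from 8-fold upward. For lowered genes the shares were 15.4%, 33.4%, 56.4%, 82.7% and 80.8%. In ZmNRL1-OE, where 10.8% of tested genes were called higher and 13.1% lower, the shares showed no such climb. They lay between 57.5% and 69.3% for raised and between 57.7% and 78.8% for lowered genes. Opposite calls among the 3998 genes numbered 95 in zmnrl1-m and 4 in ZmNRL1-OE.

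Over all raised genes the share was 34.2% (zmnrl1-m) and 64.0% (ZmNRL1-OE), and for lowered genes 28.2% and 70.4%. The value of 28.2% moved with the B73 libraries that entered. Dropping low-nitrate replicate 2 made it 43.6%, dropping replicate 3 of that level 48.0%, and dropping replicate 2 of high nitrate 47.7%. These fits called 680, 636 and 586 genes with changes under 1.5-fold, against 1836. Among changes of at least 4-fold 64.3% of raised genes were shared by zmnrl1-m and 65.5% by ZmNRL1-OE. Of the lowered genes 82.1% and 71.8% were. The exact 95% binomial intervals of the latter pair, over 78 genes, were 71.7% to 89.8% and 60.5% to 81.4% and overlapped. They treat genes as independent, which they are not.

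**Figure D5:**
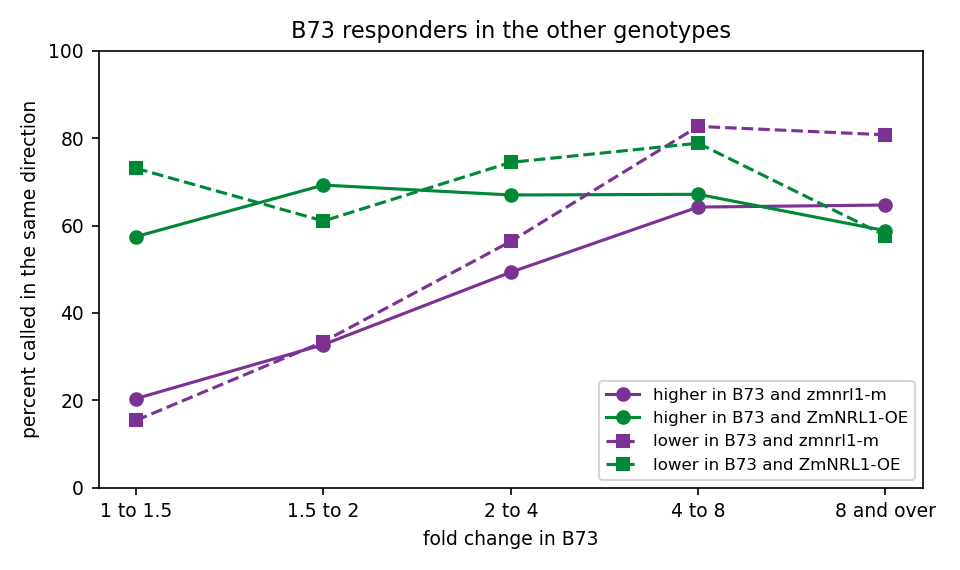
Percent of B73 responders called in the same direction (vertical axis) in zmnrl1-m (purple) and ZmNRL1-OE (green), by fold change in B73 (horizontal axis), for genes raised (circles, solid lines) and lowered (squares, dashed lines) at 0.15 mM nitrate. The purple lines climb from 20.4% and 15.4% to 64.7% and 80.8%, and the green lines stay between 57.5% and 78.8%.

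The difference between the responses was tested as an interaction. It passed an adjusted p of 0.05 in 2424 genes for zmnrl1-m (8.93% of genes tested) and in 13 for ZmNRL1-OE (0.0479%). The first count was 1569 with the replicate number as a block over all genotypes. It depended on single B73 libraries, with 744 and 685 when replicate 2 or 3 at low nitrate was left out and 706 and 917 for the same numbers at high nitrate. Without both libraries with number 1 it was 3815. The count for ZmNRL1-OE was 8 without replicate 3 at low nitrate and 4 without replicate 3 at high nitrate. Among the B73 responders it passed in 911 and 8. These genes were chosen from B73 libraries that also enter the interaction, so these 2 numbers, and the values of single genes given next, are a description. Of the most abundant genes, Zm00001d048611 had a log2 fold change of -0.22 ± 0.16 (SE) in zmnrl1-m, not past the threshold (edgeR adjusted p = 0.404), and one of 0.68 ± 0.17 in ZmNRL1-OE (0.00822). Zm00001d008329 fell in all 3 genotypes, with log2 fold changes of -2.98 ± 0.31 (B73), -3.18 ± 0.31 (zmnrl1-m) and -3.07 ± 0.31 (ZmNRL1-OE). Its response in either line had an interaction adjusted p of 0.797 and 1.0 against B73, which does not show that the responses were equal. Zm00001d038382 had a log2 fold change of -0.21 ± 0.25 in zmnrl1-m (edgeR adjusted p = 0.628), but its difference from B73 was not past the threshold (0.0879).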

How the data were processed

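The authors deposited 2 tables with 1 column per library. One holds raw whole-number read counts of 41632 genes, and the other FPKM, which the authors normalised for gene length and library size. The submitters' processing notes name featureCounts 2.0.1, HISAT2 2.2.1, Trim Galore 1.18, bcl2fastq 2.19.1 and the build B73 RefGen_v4. How strand and multiply matching reads were handled is not given in the sources used here, and counts of near-identical copies and of overlapping or antisense genes are therefore uncertain. The identifiers matched 0 of the 49888 genes of the RefSeq table for assembly NAM-5.0, and no sequence was used.

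Genes were kept with filterByExpr (minimum count 10, 6 groups), scaled by TMM and fitted with edgeR 4.0.16 in R 4.3.3, as 1 mean for each of the 6 groups of 18 libraries (12 residual degrees of freedom, total counts of 21905877 to 39003607). P-values were adjusted by Benjamini-Hochberg over 27134 genes. Standard errors are the log2 fold change over the root of its F statistic. The steps were tested on simulated counts that held no effect of the replicate number, so that test does not cover such an effect. Deviations from the group mean of same-numbered B73 libraries correlated across genes at r = 0.41, 0.12 and 0.26, all over the limit of 0.1. The main fit has no term for the number all the same, and fits with it as a block were run as alternatives. Numbers 2 and 3 also correlated with each other (0.22 and 0.09). Alternatives used DESeq2 1.42.0 and limma 3.58.1. The rule for named genes took the 2 raised and 2 lowered genes of highest mean FPKM among those called, changed at least 2-fold and not overlapping between the nitrate levels. Zm00001d048611 falls outside it. The comparison and the classes were chosen with earlier results of these data known.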

Additional observations from a re-analysis of the deposited data

Results flagged for a closer look

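For 3 abundant B73 genes the difference in response between zmnrl1-m and B73 was past the threshold of the edgeR interaction test. The genes were chosen for their response or level in the same B73 libraries that enter this difference, so the values are a description and no independent evidence that the responses differ. The log2 response in zmnrl1-m minus that in B73 was -1.04 for Zm00001d048611. In zmnrl1-m this gene stood at 5898 ± 279 FPKM at low and 6870 ± 473 FPKM at high nitrate (SD, n = 3 each), and its own response there was not past the threshold (log2 -0.22, edgeR adjusted p = 0.404). For Zm00001d044495 the difference was -0.81, with a log2 response in zmnrl1-m of 0.69 ± 0.16 (SE) against 1.5 ± 0.16 in B73. For Zm00001d051804 it was -0.40, with 0.83 ± 0.08 against 1.23 ± 0.08. Mean FPKM of Zm00001d051804 was 334 in zmnrl1-m against 302 in B73 at low nitrate, and 189 against 127 at high nitrate. For Zm00001d044495 the means were 266 against 310 at low and 165 against 108 at high nitrate. Over 13 alternative settings, chosen after seeing the data, the 3 differences were past the threshold in 13, 8 and 7, with edgeR adjusted p up to 0.0499, 0.0851 and 0.0998. With the replicate block over all genotypes the edgeR adjusted p for Zm00001d044495 was 0.0503. In ZmNRL1-OE the differences from B73 were -0.15, 0.12 and 0.04.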

How the results depend on the processing

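The 4 genes named by rule kept their call and direction under all 18 alternatives, and the cause of the other shifts was not tested. The replicate block, which treats same-numbered libraries as paired, gave 3841 genes called within B73 and 3352 over all genotypes. With the 6 B73 libraries alone it gave 3288, against 3507 for those libraries without it. The call of no named gene changed in these fits. With the block over all genotypes, added after seeing the data for the comparisons between genotypes, 1569 genes differed in response between zmnrl1-m and B73 and 33.7% of lowered B73 genes were lowered in zmnrl1-m. The 3 blocked fits had 64.9%, 66.0% and 66.9% of calls higher, and the last had 1069 calls below 1.5-fold. The share higher was also 69.9% with library sizes alone, 65.3% with a minimum count of 50, 58.5% with DESeq2, 69.2% with log2(FPKM + 1) and 70.1% with log2(FPKM + 0.1). A pseudocount of 1 lowered the calls of at least 2-fold to 577, 423 higher and 154 lower, with 495, 74 and 8 in the classes from 2-fold, 4-fold and 8-fold. A pseudocount of 0.1 left 31 in the last. DESeq2 called 192 lower genes at 100 FPKM or more. Raised B73 genes were also raised in ZmNRL1-OE in 66.6% (DESeq2 size factors), 67.7% (library sizes alone) and 66.9% (minimum count 50). For lowered genes this was 67.3% and 64.3% with the first 2, and 32.9% in zmnrl1-m with library sizes alone. With a minimum count of 50 the shares over 4-fold changes were 74.2% in both lines for raised and 86.2% in ZmNRL1-OE for lowered genes. Without both B73 libraries of number 1 the zmnrl1-m shares were 29.5% raised and 20.8% lowered, and 3815 genes differed in response from zmnrl1-m. For ZmNRL1-OE 20 genes differed with no filter on low counts. Restricting to 2-fold changes reduced the shift in the share of counts to 1.09 and -1.0 percentage points. The difference in genes detected turned to 104.1 at a common depth, or 195.5 at 5 counts. Ranking by CPM kept 13 of 20 raised and 13 of 20 lowered abundant genes.

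With 1 B73 library left out at a time, called genes ran from 2054 to 4278, raised from 1352 to 2638, lowered from 637 to 1640, and the share higher from 61.7% to 71.1%. Calls below 1.5-fold numbered 586 to 2048 and those up to 2-fold 665 to 1173, and at 100 FPKM or more 32 to 89 were raised and 50 to 155 lowered. Shares in zmnrl1-m ran from 30.4% to 48.2% for raised genes and from 22.4% to 48.0% for lowered ones, and in ZmNRL1-OE from 60.7% to 75% and from 67.1% to 73.3%. Over 4-fold changes they ran from 59.0% to 74.3% and from 64.7% to 83.1% in zmnrl1-m, and from 59.6% to 75% and from 63.5% to 80.3% in ZmNRL1-OE. Genes that differed in response from B73 numbered 685 to 3314 for zmnrl1-m and 4 to 14 for ZmNRL1-OE. Depth limits genes with few counts most.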
